A study of Mus musculus with 2 samples.

Results

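Zinc buffering and zinc transport in mouse bone marrow were followed through 5 genes: *Mt1* and *Mt2*, which encode metallothioneins, *Mtf1*, which encodes the zinc-sensing transcription factor MTF1, and the zinc transporter genes *Slc30a1* and *Slc39a10*. The genes were taken by name from the 24014 gene symbols of the 2 libraries, and all 5 were present in both tables. They were chosen by values seen in an earlier look at these data: the lower *Mt2* level in plasma cells of the library from mice on a high-fat diet, and the high *Mt1* and *Mt2* levels in early erythroid cells. Both of those patterns are therefore descriptions here and support nothing else.

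The bone marrow came from male wild type mice whose strain is labelled C57B/6 and which are called young. Mice ate normal chow (ND) or, for 16 weeks, a diet with 60% fat (HFD), and each diet gave 1 single-cell library on the BD Rhapsody whole-transcriptome platform, in which each captured RNA molecule carries a unique molecular identifier (UMI). The labels give neither the number of mice behind a library, nor any pooling, nor a sort or gate. With 1 library per diet no test of the diet was possible. Every interval below covers counting error only, and leaves out the differences between mice and between preparations and the clumping of UMIs within cells.

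The tables held 16817 cells (ND) and 17282 cells (HFD), of which 13890 and 15214 were kept, with medians of 4480 and 4076 UMIs per cell. Clustering of both libraries together gave 34 clusters. They were merged by marker genes into classes called X-like, and 22 classes of at least 50 cells in each library were compared, 3 of which are single clusters that stayed unnamed. A level is the class's UMIs of a gene scaled to a fixed total of all UMIs in that class (CPM, counts per 1e6 UMIs). The libraries shared 329 cell barcodes, and 0 of them carried identical counts.

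Metallothioneins are small, cysteine-rich proteins that bind zinc and copper in the cytosol. MTF1 senses free zinc, binds metal response elements in promoters and drives transcription of *Mt1*, *Mt2* and *Slc30a1*, and glucocorticoids are further known inducers of *Mt1* and *Mt2*. *Slc30a1* encodes ZnT1, which exports zinc across the plasma membrane, and *Slc39a10* encodes ZIP10, which imports it. Developing erythroid cells are known to raise zinc import through *Slc39a8* and later zinc export through *Slc30a1*.

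*Mt1* and *Mt2* lie next to each other, with annotated starts 6471 bases apart. Their promoters are shown because these are the members with the widest range of levels and the ones whose response to metal is read through a short motif. The sequences are the 250 bases before the RefSeq gene start (build GRCm38.p6, plus strand, 5′ to 3′): chr8:94178839-94179088 for *Mt1* and chr8:94172368-94172617 for *Mt2*. Capitals mark the core of the metal response element, searched as TGCACNC or TGCGCNC on both strands.
Mt1: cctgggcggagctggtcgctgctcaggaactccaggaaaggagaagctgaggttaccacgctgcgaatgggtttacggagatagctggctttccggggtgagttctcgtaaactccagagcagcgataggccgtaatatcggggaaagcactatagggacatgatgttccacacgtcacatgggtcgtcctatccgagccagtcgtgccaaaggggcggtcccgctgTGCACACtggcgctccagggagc
Mt2: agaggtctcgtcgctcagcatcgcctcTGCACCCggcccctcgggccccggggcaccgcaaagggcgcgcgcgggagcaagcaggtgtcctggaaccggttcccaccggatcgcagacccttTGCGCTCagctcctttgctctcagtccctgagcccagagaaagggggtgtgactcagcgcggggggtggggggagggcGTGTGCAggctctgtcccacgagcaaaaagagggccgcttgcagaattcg
The *Mt2* stretch held 3 matches and the *Mt1* stretch 1. Over windows of 300 bases, which also take in the first 50 bases of the gene, *Mt2* had 4 matches, *Mt1* 3, *Slc30a1* 2 and *Mtf1* and *Slc39a10* 0. The added *Mt1* matches lie 2 and 20 bases past the annotated start, and the added *Mt2* match 4 bases past it. The counts thus depend on where the start is annotated and do not rank the genes. Of 32851 RefSeq promoter windows of that length, 25.7% had at least 1 match, 7.11% at least 2, 1.97% at least 3 and 0.517% at least 4. A match is a run of letters, not a binding site, and a window without one says nothing of MTF1. Transcripts of the paralogs can be told apart: in GENCODE vM21 the coding transcripts of *Mt1* and *Mt2* shared no run longer than 20 bases, and 0 of the 1267 words of 25 bases of *Mt1* occurred in *Mt2*.

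Metallothionein RNA was concentrated in very few cell classes. The *Mt2* level was 977 CPM (ND) and 779 CPM (HFD) in early erythroid-like cells and 978 CPM (ND) and 434 CPM (HFD) in plasma cell-like cells. In each of the other 20 classes of this clustering it was 28.9 CPM or less in both libraries. Under other cell filters and clusterings, late erythroid-like cells or an unnamed cluster were also at 125 to 532 CPM of *Mt2*. Early erythroid-like cells alone held 92.5% (ND) and 93.1% (HFD) of all *Mt2* UMIs, which numbered 26337 and 13930. *Mt1* was broader. Its level was 509 CPM (ND) and 495 CPM (HFD) in early erythroid-like cells and 595 CPM (ND) and 339 CPM (HFD) in plasma cell-like cells, and these were the 2 highest classes in each library. Neutrophil progenitor-like cells followed, with 265 CPM (ND) and 220 CPM (HFD), beside macrophage-like cells, with 269 CPM (ND) and 255 CPM (HFD). The intervals of those last classes overlapped in ND. Late erythroid-like cells (139 and 73.6 CPM), eosinophil-like cells (115 and 102 CPM), unnamed cluster 2, led by *F13a1*, *Gria3* and *Cd34* (82.7 and 73.4 CPM) and megakaryocyte-like cells (76.7 and 46.5 CPM) made up a middle range of *Mt1*. The median class was at 17.1 CPM (ND) and 14.4 CPM (HFD).

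**Figure D1:**
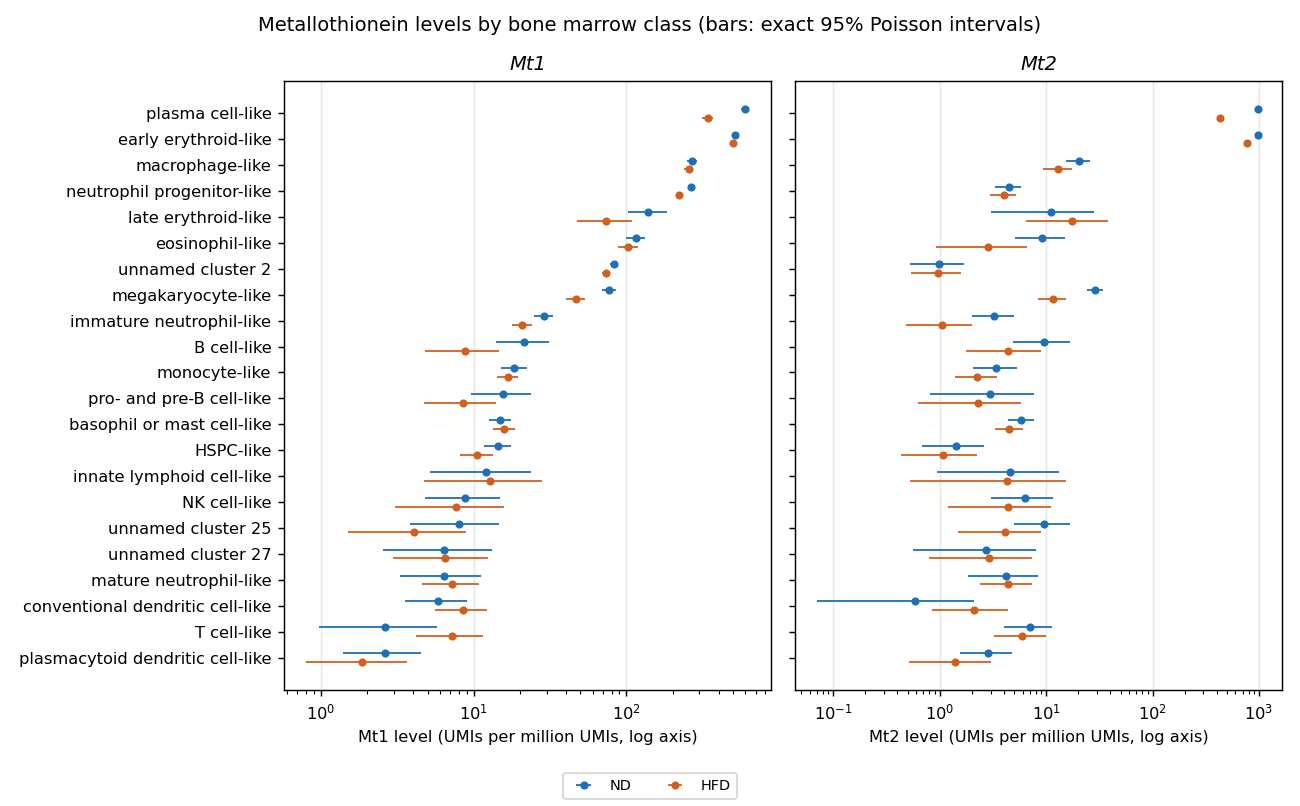
Levels of *Mt1* (left) and *Mt2* (right) in 22 bone marrow classes, in CPM on a log axis, for the ND (blue) and HFD (orange) library, with exact 95% Poisson intervals. In this clustering *Mt2* is high in early erythroid-like and plasma cell-like cells only, at 434 to 978 CPM against 28.9 CPM or less elsewhere. *Mt1* also reaches 220 to 269 CPM in neutrophil progenitor-like and macrophage-like cells.

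The order of early erythroid-like and plasma cell-like cells depended on how a level was scaled. In ND the *Mt2* level of plasma cell-like cells was 1.00 times that of early erythroid-like cells in CPM. It was 1.74 times as high when mitochondrial, haemoglobin, immunoglobulin, *S100a8* and *S100a9* UMIs were left out of the totals, and 0.425 times as high in UMIs per cell. In HFD the same ratios were 0.556, 0.997 and 0.264. Immunoglobulin made up 41.1% (ND) and 43.1% (HFD) of the UMIs of plasma cell-like cells. In CPM these were the 2 highest classes in 4 of the 4 cases (each gene in each library) under the cell filters, Leiden resolutions and scalings of the total that were run, and in 3 of 4 when the metal genes were left out of the clustering. There an unnamed cluster had 469 CPM of *Mt2* in HFD, above the 434 CPM of plasma cell-like cells. That clustering named 642 (ND) and 531 (HFD) cells early erythroid-like, against 967 and 715 in the main one. Whether the unnamed cluster held the cells that lost this name was not tested. In UMIs per cell, neutrophil progenitor-like cells in HFD, with 4.91 *Mt1* UMIs, stood above plasma cell-like cells, with 3.75.

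Where a class has few UMIs of a gene, these can be free RNA from broken cells, which was not measured directly. *Car1*, the carbonic anhydrase gene that led the early erythroid-like cells (98.5% of their cells in ND and 98.0% in HFD had a UMI), served as the yardstick, since its UMIs in other classes show how much early erythroid RNA was there. At the ratio of *Mt2* to *Car1* seen in early erythroid-like cells (0.351 in ND and 0.286 in HFD), plasma cell-like cells had 481 times (ND) and 283 times (HFD) the *Mt2* UMIs that their *Car1* UMIs would bring. The same figure was 4.08 and 1.94 in macrophage-like cells, 1.74 and 1.33 in neutrophil progenitor-like cells, 1.11 and 0.731 in immature neutrophil-like cells and 0.930 and 1.25 in eosinophil-like cells. *Mt2* in the last 2 of these classes was thus at the level of that background. In neutrophil progenitor-like cells, and in HFD also in macrophage-like cells, *Mt2* was near it. *Mt1* stood far above that early erythroid background in neutrophil progenitor-like cells (199 and 115 times), in the *F13a1* cluster (214 and 106 times), in macrophage-like cells (104 and 60.2 times) and in eosinophil-like cells (22.6 and 71.5 times). The eosinophil-like figures rest on 46 (ND) and 14 (HFD) *Car1* UMIs, with 190 and 182 *Mt1* UMIs. Early erythroid-like cells held 63.6% (ND) and 56.2% (HFD) of all *Mt1* UMIs. Free *Mt1* RNA from other classes need not bring *Car1*, so the yardstick cannot measure it. In T cell-like cells *Mt1* was near that background, at 2.18 times its level in HFD and less in ND. Megakaryocyte-like cells could not be judged this way, since 46.1% (ND) and 47.7% (HFD) of them had a *Car1* UMI.

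The balance of the paralogs separated the same classes. A UMI counts 1 molecule whatever the transcript's length, but the genes may be captured unequally, so the *Mt1* share of all *Mt1* and *Mt2* UMIs is set against itself across classes. It was 34.3% (ND) and 38.8% (HFD) in early erythroid-like cells and 37.8% (ND) and 43.9% (HFD) in plasma cell-like cells. These were the only 2 classes of this clustering whose exact 95% binomial interval lay below 50% in both libraries. Under each of the 6 other cell filters and clusterings there were 3: these 2 and either late erythroid-like cells or an unnamed cluster. The share was 98.4% and 98.2% in neutrophil progenitor-like cells, 98.8% and 98.7% in the *F13a1* cluster, 93.0% and 95.2% in macrophage-like cells and 92.7% and 97.3% in eosinophil-like cells. In those 4 classes metallothionein RNA was almost all *Mt1*. Megakaryocyte-like cells lay between, at 72.7% and 80.2%.

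**Figure D2:**
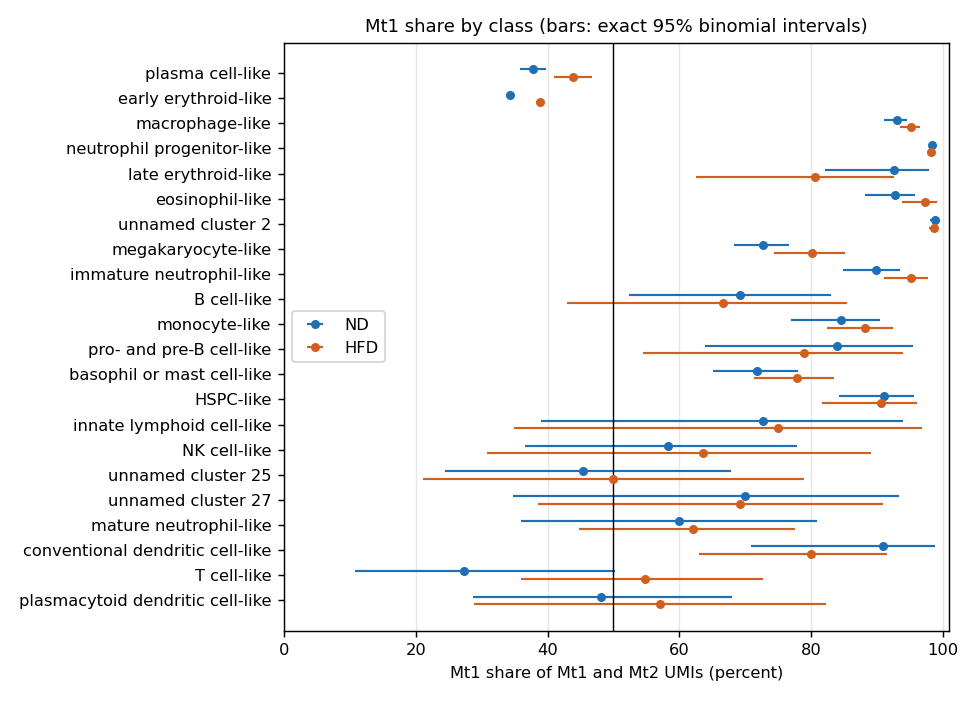
Share of *Mt1* in the summed *Mt1* and *Mt2* UMIs of each class, in percent, for ND (blue) and HFD (orange), with exact 95% binomial intervals and a line at 50%. Early erythroid-like (34.3% and 38.8%) and plasma cell-like cells (37.8% and 43.9%) lie left of the line, and neutrophil progenitor-like cells lie at 98.4% and 98.2%.

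Early erythroid-like cells numbered 967 (ND) and 715 (HFD), with medians of 27471 and 24212 UMIs per cell. All 18 early erythroid markers were detected in the ND library and in the HFD library, with summed levels of 13522 and 12279 CPM, and 16 plasma cell markers summed to 199 and 143 CPM. *Mt1* UMIs were found in 87.7% (ND) and 82.0% (HFD) of these cells, and *Mt2* UMIs in 88.8% and 80.3%. With each cell thinned to 1000 UMIs the shares were 33.6% and 32.2% for *Mt1* and 49.5% and 42.7% for *Mt2*. The RNA was spread over many cells: the 10 cells with the most UMIs of either gene held 5.16% (ND) and 6.77% (HFD) of them. The median cell was at 770 CPM (ND) and 579 CPM (HFD) of *Mt2*, with a middle range (25th to 75th percentile) of 284 to 1288 CPM and 95.4 to 1096 CPM.

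The class had 2 clusters, and the metallothioneins were higher in the cluster with less haemoglobin. *Mt2* and *Mt1* were among the 10 leading genes of the first, beside *Car1*, so their level there helped to define it. In that cluster *Mt2* was at 1197 CPM (ND) and 882 CPM (HFD) and *Mt1* at 669 and 616 CPM. In the second, led by *Ctse* (cathepsin E), *Mt2* was at 740 and 620 CPM and *Mt1* at 337 and 307 CPM. Haemoglobin UMIs made up 0.00562% and 0.00699% of the first and 0.542% and 0.652% of the second. In late erythroid-like cells, which are rich in haemoglobin (26.8% and 40.2% of UMIs), *Mt2* was at 11.1 and 17.7 CPM, on 4 and 6 UMIs. That low level depended on where the class was drawn. Late erythroid-like *Mt2* was at 315.5 (ND) and 213.8 CPM (HFD) without a cell filter. It was at 476.9 and 413.3 CPM with a stricter filter and at 177.4 and 124.9 CPM with doublets kept.

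In this class *Mt1* was close between the libraries, and *Mt2* was lower in HFD by less than the 1.5-fold limit. On the log2 scale the HFD level over the ND level was -0.04 (95% interval -0.08 to -0.001) for *Mt1* and -0.33 (-0.36 to -0.30) for *Mt2*. A difference was called where it reached 1.5-fold and its interval excluded 0, and neither was called. In the same class 3.17% of 11209 genes were called higher and 1.15% lower. Of all genes tested in this class, 7.09% had a lower ratio than *Mt2* and 36.0% a lower ratio than *Mt1*. The *Mt2* ratio was -0.44 in the *Car1* cluster and -0.26 in the *Ctse* cluster. The cells of the first were 512 (ND) and 464 (HFD) and those of the second 455 and 251, so the class held relatively more of the high cluster in HFD.

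Plasma cell-like cells were 142 (ND) and 135 (HFD), in 1 cluster, with medians of 11294 and 11287 UMIs. All 16 plasma cell markers were detected in both libraries, and their levels summed to 63494 and 64678 CPM. The *Mt2* level was 978 CPM in ND (1519 UMIs) and 434 CPM in HFD (647 UMIs), a log2 ratio of -1.17 (-1.31 to -1.04). *Mt1* was at 595 CPM (924 UMIs) and 339 CPM (506 UMIs), a log2 ratio of -0.81 (-0.97 to -0.65). Both were called lower in HFD, where 5.8% of 7799 genes were called lower and 2.86% higher. Among all genes tested there, 2.91% had a lower ratio than *Mt2* and 6.77% a lower ratio than *Mt1*.

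Most of the metallothionein RNA of plasma cell-like cells sat in a minority of them, more so than in early erythroid-like cells. No UMI of either gene was found in 41 of 142 cells in ND (28.9%) and in 57 of 135 in HFD (42.2%), against 6.93% and 11.3% of early erythroid-like cells. The 10 cells with the most UMIs held 53.1% and 63.6% of the class's metallothionein UMIs. Early erythroid-like cells were deeper and more numerous, so neither figure compares evenly between the classes. Cells at 1000 CPM or more of both genes together numbered 45 in ND (31.7%, exact 95% interval 24.1% to 40.0%) and 20 in HFD (14.8%, 9.29% to 22.0%). They held 90.6% and 78.7% of the class's metallothionein UMIs. Of early erythroid-like cells, 58.3% and 50.6% were at that level and held 89.3% and 84.0%. Thinned to 1000 UMIs per cell, 35.9% (ND) and 17.0% (HFD) of plasma cell-like cells had an *Mt2* UMI, and 29.6% and 17.0% an *Mt1* UMI. The whole cells gave 62.0% and 48.2% for *Mt2*. The same cells carried both genes: of thinned ND cells with an *Mt2* UMI, 66.7% also had *Mt1*, against 8.79% of those without. In HFD these shares were 52.2% and 9.82%.

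**Figure D3:**
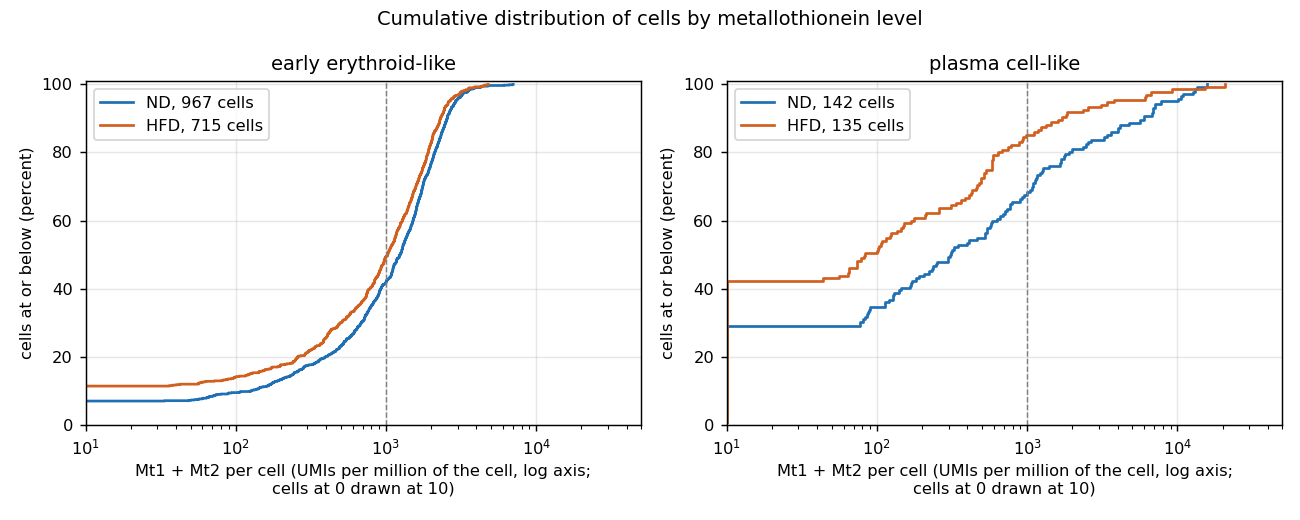
Cumulative share of cells (percent) by summed *Mt1* and *Mt2* level, in CPM of the cell on a log axis, for early erythroid-like (left) and plasma cell-like cells (right) of the ND (blue) and HFD (orange) library, with cells at 0 drawn at 10 and a dashed line at 1000 CPM. At that line 31.7% of ND and 14.8% of HFD plasma cell-like cells are still to come, against 58.3% and 50.6% of early erythroid-like cells.

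Splitting plasma cell-like cells by the heavy chain with the most UMIs gave summed levels with the same direction in both large groups. The share of cells with a UMI did not have the same direction in both. In the 34 (ND) and 39 (HFD) *Igha* cells, which make immunoglobulin A, *Mt2* was at 1089 and 237 CPM, a log2 ratio of -2.20, and *Mt1* at 590 and 251 CPM, a ratio of -1.23. In the 99 and 91 *Ighm* cells, which make immunoglobulin M, *Mt2* was at 1012 and 545 CPM, a ratio of -0.89, and *Mt1* at 644 and 402 CPM, a ratio of -0.68. Among *Igha* cells, 52.9% (ND) and 61.5% (HFD) had an *Mt2* UMI and 47.1% and 51.3% an *Mt1* UMI, so these shares were higher in HFD. Among *Ighm* cells they were lower in HFD, at 66.7% and 44.0% for *Mt2* and 62.6% and 41.8% for *Mt1*. The remaining 9 and 5 cells were too few to describe. *Igha* cells made up 23.9% (ND) and 28.9% (HFD) of the class. The split was chosen after the data were seen, and whether the isotypes differ was not tested.

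The other members in plasma cell-like cells went different ways. *Slc30a1* had 25 UMIs in ND (16.1 CPM) and 5 in HFD (3.35 CPM), a log2 ratio of -2.26 (-4.01 to -0.85), and was called lower. That value in HFD was the lowest *Slc30a1* level of any class. *Mtf1* had 18 and 19 UMIs (11.6 and 12.7 CPM), a log2 ratio of 0.14 (-0.87 to 1.15), and was not called. *Slc39a10* had 6 and 11 UMIs, below the minimum of 20 over both libraries that a call needed.

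Over all classes, 91 of the 110 pairs of a member and a class reached 20 UMIs. Of these, 3 were called higher in HFD and 10 lower. Of all 203049 pairs of a gene and a class, 2.53% were called higher and 2.51% lower. *Mt1* and *Mt2* made up 9 of the 10 lower calls. *Mt2* was below 0 in 12 of 13 pairs and called lower in 5, and *Mt1* was below 0 in 15 of 19 and called lower in 4. *Mtf1* was above 0 in 15 of 21 pairs, *Slc39a10* in 13 of 17 and *Slc30a1* in 8 of 21. Of the 13 calls, those of *Mt1* and *Mt2* in plasma cell-like cells were kept under each of 11 alternatives, and those of *Slc30a1* in plasma cell-like cells and of *Mtf1* in innate lymphoid cell-like cells under 10 of 11. The *Slc30a1* call in unnamed cluster 27 was kept under 4 of the 5 that could be run. The other 8 calls, all of *Mt1* or *Mt2*, were kept under 3 to 9 of 11. In a class of 1 cluster, such as plasma cell-like and innate lymphoid cell-like cells, weighting clusters alike could not change a value. Plasma cell-like cells again numbered 142 and 135 with doublets kept, at resolution 0.5 and without the metal genes. Those alternatives could change little there, so the count of kept calls overstates how far that class was probed.

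**Figure D4:**
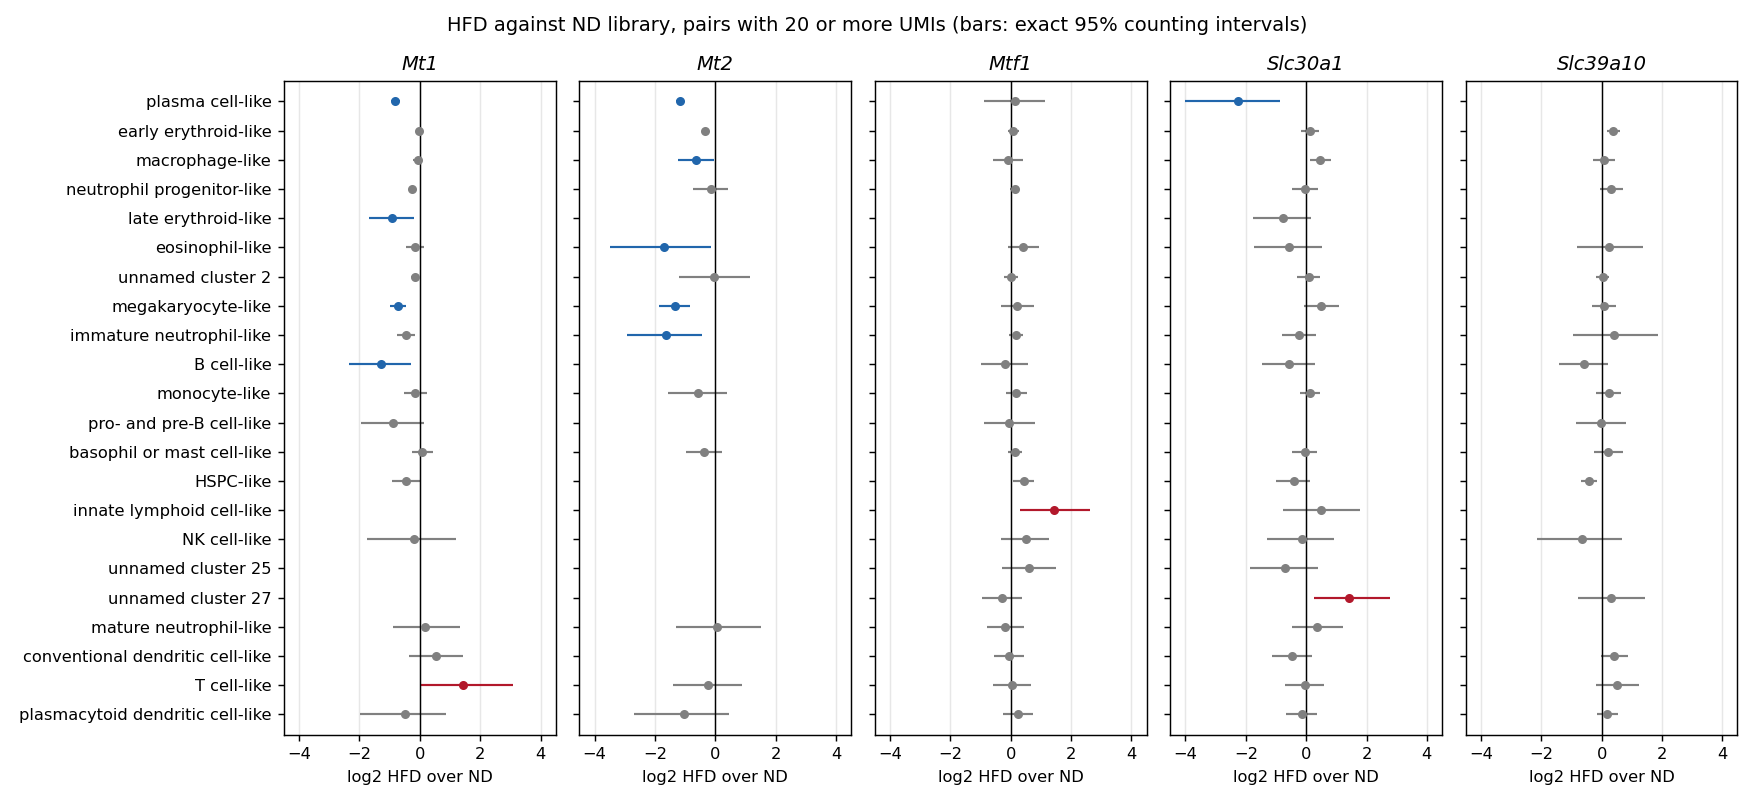
Log2 ratio of the HFD over the ND level for each member in each class with at least 20 UMIs over both libraries, with exact 95% counting intervals; blue marks pairs called lower, red pairs called higher and grey the rest. The 10 blue points are mostly *Mt1* and *Mt2*, and the lowest is *Slc30a1* in plasma cell-like cells at -2.26.

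In megakaryocyte-like cells *Mt1* was at 76.7 CPM (335 UMIs) in ND and 46.5 CPM (178 UMIs) in HFD, a log2 ratio of -0.72, and *Mt2* at 28.9 CPM (126 UMIs) and 11.5 CPM (44 UMIs), a ratio of -1.33, where 2.46% of all genes were called lower. In ND 1 cell held 52 of the *Mt2* UMIs, and 10 cells held 69.0% of them. The *Mt2* ratio was -0.26 with a stricter cell filter and 0.21 when cells were thinned to 1000 UMIs, and the *Mt1* ratio was 0.09 when the 2 clusters of this class weighed alike. In macrophage-like cells *Mt2* was at 20.2 and 12.9 CPM (63 and 41 UMIs), a ratio of -0.65, where 2.24% of genes were called lower, while *Mt1* was at 269 and 255 CPM. *Mt2* there stood at 4.08 times (ND) and 1.94 times (HFD) the *Car1* background, so in HFD it was near that background. That *Mt2* call was lost under 5 of 11 alternatives, with ratios of -0.46 without a cell filter, -0.51 with the stricter one, -0.54 with doublets kept, -0.20 as a mean over cells and -0.48 thinned. *Mt2* in eosinophil-like cells (15 and 5 UMIs, ratio -1.69) and in immature neutrophil-like cells (21 and 9 UMIs, ratio -1.63) was called lower at the level of the *Car1* background given above. In those classes 2.7% and 1.67% of genes were called lower.

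In late erythroid-like cells *Mt1* was at 139 CPM (50 UMIs) in ND and 73.6 CPM (25 UMIs) in HFD, a log2 ratio of -0.91 that was -0.08 with doublets kept. In that class 17.5% of 3477 genes were called lower, the median log2 ratio of all genes was -0.36 and the median depth was 1330 and 2648 UMIs. Its 18 macrophage markers summed to 7459 (ND) and 5389 CPM (HFD), against 130 and 129 CPM in early erythroid-like cells; their part in the *Mt1* value was not tested. *Mt1* in B cell-like cells was called lower on 27 and 14 UMIs (21.4 and 8.76 CPM, ratio -1.29), where 2.15% of genes were. It stood at 7.78 times (ND) and 1.64 times (HFD) the *Car1* background, so in HFD it was near that background. T cell-like cells gave the 1 higher call for *Mt1*, from 6 to 17 UMIs (2.63 and 7.18 CPM, ratio 1.45, interval 0.04 to 3.08), where 3.36% of genes were called higher; at a finer clustering the ratio was 0.02.

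*Mtf1* was found in every class and varied least. Its levels ran from 8.32 to 53.6 CPM in ND and from 8.83 to 58.9 CPM in HFD, so the highest class was 2.63 and 2.73 times the median class. For *Mt2* the same figure was 188 and 186. Neutrophil progenitor-like cells had the highest *Mtf1* level, 53.6 CPM (ND) and 58.9 CPM (HFD). Of the 2 larger immature neutrophil-like clusters, the one led by *Fcnb* and *Chil3* was at 51.6 and 60.3 CPM and the one led by *Ltf* and *Ly6g* at 29.9 and 31.1 CPM. Early erythroid-like cells were at 27.5 and 29.2 CPM. The level of *Mtf1* did not follow that of the metallothioneins across classes: Pearson's r of log2(CPM + 10) over 44 points (22 classes in each library) was 0.08 with *Mt1* and -0.19 with *Mt2*. The points share the libraries and their depth, so r is given as a description. Only innate lymphoid cell-like cells were called, higher in HFD, on 11 and 21 UMIs (16.6 and 45.1 CPM, ratio 1.44), where 3.6% of genes were called higher.

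*Slc30a1*, the exporter gene, was highest in late erythroid-like cells, at 80.4 CPM in ND (29 UMIs) and 47.1 CPM in HFD (16 UMIs), and in macrophage-like cells, at 37.2 CPM (116 UMIs) and 51.3 CPM (163 UMIs). In HFD the order of these classes was the reverse of that in ND, and their intervals overlapped there. Early erythroid-like cells were at 9.63 and 10.5 CPM, below late erythroid-like cells in each library, and the macrophage markers in late erythroid-like cells given above apply here too. Monocyte-like cells came next in ND, at 22.9 CPM on 129 UMIs. In HFD innate lymphoid cell-like cells, at 25.8 CPM, ranked above monocyte-like cells, which had 233 UMIs. Within the macrophage-like class the deepest cluster, led by *Mertk*, a receptor for the uptake of dying cells, and *Gdf15*, was at 45.8 CPM (40 UMIs) in ND and 74.2 CPM (81 UMIs) in HFD. For the class as a whole the log2 ratio was 0.46 (0.11 to 0.82), below the 1.5-fold limit. The genes whose pattern over the 44 points was most like that of *Slc30a1* were *Serinc1* (r = 0.825), *Abcg3* (0.811), *Ms4a7* (0.790), *Pparg* (0.790) and *Hmox1* (0.790). Unnamed cluster 27, led by *Vpreb3*, *Rag1* and *Bach2*, genes of B cell precursors, had 8 *Slc30a1* UMIs in ND and 27 in HFD (7.26 and 19.6 CPM, ratio 1.43) and was called higher, as were 2.23% of genes there.

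*Slc39a10*, the importer gene, had its highest levels in HSPC-like cells, which carry markers of haematopoietic stem and progenitor cells (41.6 CPM in ND and 30.8 CPM in HFD), in macrophage-like cells (38.8 and 40.6 CPM) and in plasmacytoid dendritic cell-like cells (29.1 and 33.2 CPM). It was low in the neutrophil classes: neutrophil progenitor-like cells were at 8.46 and 10.6 CPM, and unnamed cluster 25, led by *Retnlg* and *Mmp8*, had 0 UMIs in 309 and 379 cells, which allows a UMI in up to 0.971% and 0.792% of cells. Plasma cell-like cells were also low, at 3.86 and 7.37 CPM, against 24.6 and 16.3 CPM in B cell-like cells. In early erythroid-like cells the *Car1* cluster was at 18.3 and 21.4 CPM and the *Ctse* cluster at 8.67 and 12.7 CPM. No class was called for *Slc39a10*. The log2 ratio was -0.43 (-0.70 to -0.17) in HSPC-like cells, on 295 and 199 UMIs, and 0.39 (0.16 to 0.62) in early erythroid-like cells, on 341 and 299 UMIs. In conventional dendritic cell-like cells, with 75 and 97 UMIs, it was 0.42 (-0.03 to 0.88).

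**Figure D5:**
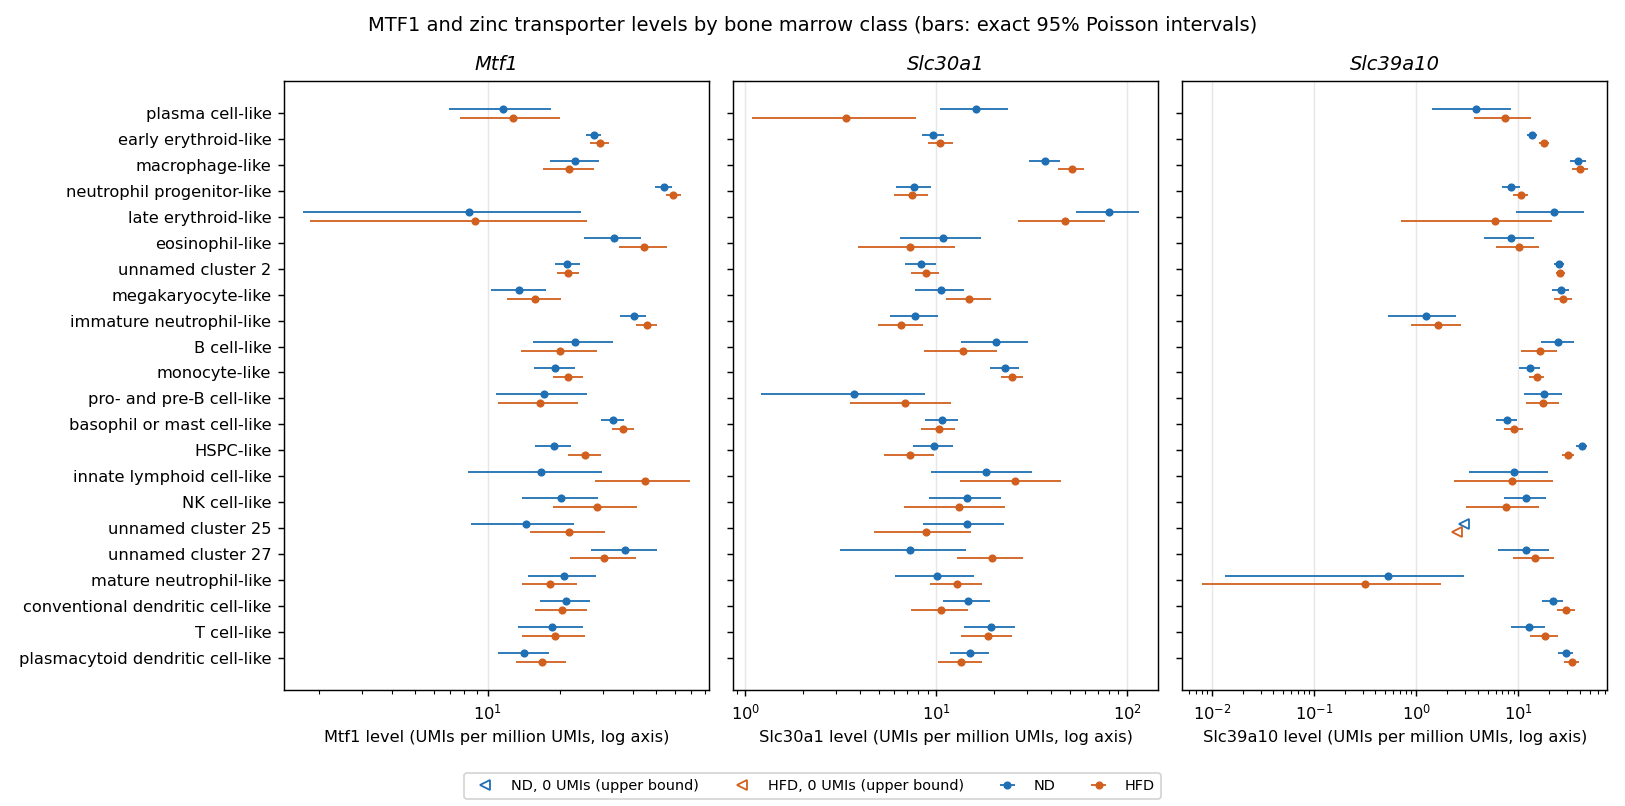
Levels of *Mtf1*, *Slc30a1* and *Slc39a10* in 22 classes, in CPM on log axes, for ND (blue) and HFD (orange), with exact 95% Poisson intervals; open triangles mark the upper bound where no UMI was seen. *Mtf1* stays within 8.32 to 58.9 CPM, *Slc30a1* peaks in late erythroid-like and macrophage-like cells, and *Slc39a10* is highest in HSPC-like cells in ND and in macrophage-like cells in HFD.

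The order of classes was kept between the libraries to different degrees. Spearman's rho of the levels over 22 classes, as a description, was 0.951 for *Mt1*, 0.868 for *Mt2*, 0.851 for *Slc39a10*, 0.747 for *Mtf1* and 0.614 for *Slc30a1*. The genes most like *Mt2* over the 44 points were *Ryk* (r = 0.897), *Tspan15* (0.888), *Popdc2* (0.886), *Tmem120b* (0.856) and *Amigo2* (0.834), each ahead of *Mt1* (0.708). Those most like *Mt1* were *Pecr* (0.822), *Coprs* (0.745), *Nars* (0.717), *6330562C20Rik* (0.689) and *Arfgap3* (0.688).

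Other metal transport genes had their highest levels in different classes, and those named here were picked after their values were seen. Early erythroid-like cells had the highest level of *Slc39a8*, the ZIP8 importer (67.6 and 65.0 CPM), of *Slc11a2*, the DMT1 iron importer (90.8 and 81.8 CPM), of *Atp7b*, a copper-transporting ATPase (59.9 and 52.8 CPM, against 2.50 CPM or less in every other class), and of *Slc30a10*, a manganese exporter (4.90 and 3.72 CPM). Plasma cell-like cells had the highest level of *Slc39a7*, the ZIP7 transporter that releases zinc from the endoplasmic reticulum (156 and 177 CPM), and of *Slc30a7*, which loads zinc into the secretory pathway (43.1 and 53.6 CPM). *Slc30a5*, a partner in that pathway, was highest in pro- and pre-B cell-like cells in ND (118 CPM) and in the *Vpreb3* cluster in HFD (137 CPM). *Slc30a2* was highest in eosinophil-like cells (34.5 and 36.5 CPM), *Slc39a4* in mature neutrophil-like cells (52.4 and 45.1 CPM) and *Slc39a1* in macrophage-like cells (187 and 174 CPM). The 2 remaining metallothionein genes were almost unseen, with 5 and 4 UMIs of *Mt3* and 0 and 1 of *Mt4* in a whole library.

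Few of these genes differed between the libraries. In plasma cell-like cells, 5 of 10 zinc exporter genes (Slc30 family) reached 20 UMIs and *Slc30a1* was the 1 called, lower, with a median log2 ratio of 0.22. Of 14 importer genes (Slc39 family), 8 reached it and 0 were called at the 1.5-fold limit, with a median of 0.25. The median of all 7799 genes was -0.05. In early erythroid-like cells 6 exporter and 11 importer genes reached it and 0 of either were called, with medians of 0.11 and -0.08 beside 0.02 for all genes. Over the 11 classes that comprise early erythroid-like cells and the classes with a called member, 2 of 56 exporter pairs were called higher and 1 lower, and 1 of 91 importer pairs was called each way. In the same classes 2.97% of all pairs of a gene and a class were called higher and 2.93% lower. *Slc30a1*, a member, gave the lower exporter call (plasma cell-like cells) and 1 of the 2 higher ones (unnamed cluster 27). Its calls helped to pick these classes, so the exporter counts cannot be weighed against the share of all pairs. In macrophage-like cells the importer calls were *Slc39a6* (16.3 and 24.9 CPM, ratio 0.61) and *Slc39a3* (21.5 and 10.4 CPM, ratio -1.05).

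Some genes of the glucocorticoid response list were called in plasma cell-like cells. Of 12 glucocorticoid response genes 7 reached 20 UMIs, 3 were called lower and 1 higher, with a median log2 ratio of -0.58, where 5.8% of all genes were called lower and 2.86% higher. *Nr3c1*, the glucocorticoid receptor gene, was at 80.5 CPM (125 UMIs) and 42.9 CPM (64 UMIs), a ratio of -0.91. *Tsc22d3*, the glucocorticoid-induced leucine zipper gene, was at 100.4 and 62.3 CPM, a ratio of -0.69, and *Cebpd* had 18 and 2 UMIs, a ratio of -3.11 (-6.26 to -1.05). *Dusp1*, a phosphatase gene that stress also induces, was called higher, at 108 and 203 CPM. In early erythroid-like cells 11 of these genes reached the minimum, 0 were called lower and *Zbtb16* was called higher on 17 and 25 UMIs, with a median of -0.07. Of 12 genes of the NRF2 oxidative stress response, 9 were measured in plasma cell-like cells and *Gsr*, glutathione reductase, was the 1 called, lower (42.5 and 24.8 CPM, ratio -0.78). Of 13 secretory pathway genes 0 were called there, with a median of 0.10. Whether these genes and the metallothioneins moved for a shared reason was not tested.

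Inducible heat shock genes, which also respond to the handling of cells, were called higher in HFD in each of these 11 classes for at least 1 gene. Over the classes together, 25 of 102 pairs were called higher and 1 lower, against 2.97% and 2.93% of all pairs of a gene and a class. *Hspa1a* went from 0 to 262 UMIs in early erythroid-like cells and from 3 to 61 UMIs in plasma cell-like cells, and *Hspa1b* from 34 to 676 and from 4 to 88 UMIs. In plasma cell-like cells 4 of 11 heat shock genes were called higher, with a median log2 ratio of 0.38. Mitochondrial UMIs were 5.79% (ND) and 5.46% (HFD) of plasma cell-like and 8.17% and 7.72% of early erythroid-like cells. With 1 library per diet, diet and preparation cannot be told apart.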

How the data were processed

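Per the file headers, the authors ran the BD Rhapsody whole-transcriptome pipeline 1.9.1 and deposited counts, that is error-corrected UMIs per gene and cell, against a custom reference whose genome build is not given in the sources used here. The deposited tables hold 117999042 (ND) and 117773643 (HFD) UMIs. Genes were matched by symbol, and the 5 antibody tags were not used.

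A cell needed 200 genes and could hold up to 25% mitochondrial UMIs. Doublets were found with Scrublet and taken out (412 and 436 cells). The remaining cells of the ND and HFD tables were clustered jointly with scanpy 1.11.5 (Leiden, resolution 1.0, no batch integration). The 50 leading genes of a cluster had to include 3 or more markers of a class for the cluster to take its name. It stayed unnamed where another class had more markers among the 10 leading genes. *Mt1*, *Mt2* and *Slc30a1* were among the 2000 variable genes used, and 1 alternative clustered without the metal genes.

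UMIs were summed per class and library and scaled to the class total. Levels carry exact Poisson intervals, shares exact Clopper-Pearson intervals, and log2 ratios exact conditional binomial intervals, all at 95%. A difference was called at 1.5-fold with an interval excluding 0, given 20 UMIs over both libraries. There was no test across samples, since each diet had 1 library. The ratio and call rule was tested on simulated class sums with known ratios. Those sums had counting error only, without clumping of UMIs within cells, and the other steps were not simulated. Alternatives changed the cell filter, doublets, resolution, scaling, depth and minimum. The members, marker lists and gene lists were chosen with earlier results of these data known. The genes named were the 5 members, up to 3 called genes per list and direction, and the 5 genes nearest in pattern (at least 200 UMIs in both libraries together); other zinc genes were named after their values were seen.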

Additional observations from a re-analysis of the deposited data

Results flagged for a closer look

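*Mt1* was called higher in T cell-like cells of the HFD library, with a log2 ratio of 1.45, while it was called lower in B cell-like, late erythroid-like, megakaryocyte-like and plasma cell-like cells. The call rested on 6 UMIs in ND and 17 in HFD, and the ratio was 0.02 with clustering at resolution 2.0. *Slc30a1* was called higher in the unnamed cluster led by *Vpreb3*, *Rag1* and *Bach2*, with a log2 ratio of 1.43 on 8 and 27 UMIs, while it was called lower in plasma cell-like cells on 25 and 5 UMIs. In both cases the difference between the classes was not tested.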

How the results depend on the processing

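No paired analysis was possible because each diet has 1 library. *Mt1* and *Mt2* stayed lower in HFD plasma cell-like cells, past 1.5-fold, under every alternative run. Several of these could change little or nothing in that class, which is 1 cluster of nearly the same size in each clustering. The log2 ratio of *Mt2* there moved from -1.17 to -1.36 with thinned cells and -1.40 without the 10 highest cells. That of *Mt1* moved from -0.81 to -0.98 with thinned cells, -1.39 without the 10 highest cells and -1.18 with heavy chain classes weighted alike. The last value gives the 9 (ND) and 5 (HFD) cells of other heavy chains, with a ratio of -1.63, the same weight as the large groups. Leaving out cells and weighting heavy chains were chosen after seeing the data, and the 10 cells left out held 53.1% (ND) and 63.6% (HFD) of the metallothionein UMIs. In early erythroid-like cells the *Mt1* ratio of -0.04 became -0.083 with the stricter cell filter, -0.086 each at resolution 2.0, without the metal genes in the clustering and as a mean over cells, -0.13 with clusters weighted alike and -0.17 thinned. The *Mt2* ratio of -0.33 became -0.40 with the stricter filter and without the metal genes, -0.28 with doublets kept, -0.38 at resolution 0.5, -0.39 at resolution 2.0, -0.28 as a mean over cells and -0.20 thinned. The alternatives named 639 to 811 (ND) and 525 to 622 (HFD) cells early erythroid-like, against 967 and 715.

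The 3 pairs called higher became 5 with the stricter filter, 1 with doublets kept, 6 at resolution 2.0 and 0 with thinned cells or a minimum of 100 UMIs. The 10 called lower became 2 thinned, 5 at a minimum of 100 UMIs and, in a count added later, 6 without *Mt2* outside early erythroid-like and plasma cell-like cells. In megakaryocyte-like cells *Mt1* reversed to 0.094 with clusters weighted alike and *Mt2* to 0.21 thinned, and *Mt2* was -0.26 with the stricter filter and at resolution 2.0. *Mt1* in late erythroid-like cells was -0.08 with doublets kept. The cause of these changes was not tested. With a minimum of 1 UMI the counts were 3 and 10, as with 20.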
